A study of Mus musculus with 6 samples.

Results

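Collagens are triple-helical proteins of the extracellular matrix, and the mouse genes for their chains were followed here in NIH/3T3 cells, an established line of mouse embryonic fibroblasts. The members are all genes whose symbol reads Col, a number, the letter a and a number, after the Ensembl identifiers of the count table had been matched to symbols. Of 54752 gene identifiers, 54723 matched a symbol and 44 were collagen genes. RNA depleted of rRNA was sequenced in 6 libraries. Each of 3 groups had 2 replicates and lasted 72 h. The vehicle group received PBS. Both other groups received 1 ng/ml TGF-β1, together with DMSO in the DMSO group and with 5 μM BI6727 in the BI6727 group. BI6727 is volasertib, an inhibitor of the mitotic kinase PLK1, and TGF-β1 is a cytokine that turns fibroblasts into contractile myofibroblasts. DMSO was the carrier control for BI6727. The vehicle group held no DMSO by its labels, so that TGF-β1 and DMSO cannot be told apart in the DMSO group against vehicle. The cells are 1 line. The study's methods speak of biological replicates, but the groups and replicates they count there differ from those of the labels and files, so it is unclear whether the libraries of a group were separate cultures. If they were not, p-values measure a spread that may be technical. In bulk samples, fewer cells that make an RNA and less of that RNA per cell cannot be told apart.

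Each collagen chain repeats a triplet of residues that opens with glycine along its helix, because only the smallest side chain fits the centre where the chains meet. Fibrillar collagens build the cable-like fibrils of tendon, skin and scar. Type IV chains form the sheet under epithelia and around vessels, type VI chains form beaded filaments close to the cell surface, type VII forms the fibrils that anchor epithelium to dermis, and the FACIT collagens (fibril-associated collagens with interrupted triple helices) sit on the surface of fibrils. In fibrosis, TGF-β1 is best known for raising the fibrillar collagens of types I and III.

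The glycine repeat was read from the coding sequences of the Gencode M21 transcripts, mm10 build, and 3 stretches are shown for a fibrillar chain, for a basement membrane chain that fell and for the anchoring fibril chain that rose. Each line gives the first 63 bases of the gene's longest run of codon triplets that begin with a glycine codon, 5′ to 3′, with the glycine codons in capitals.
Col1a1: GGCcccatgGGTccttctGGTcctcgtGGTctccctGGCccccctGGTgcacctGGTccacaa
Col4a6: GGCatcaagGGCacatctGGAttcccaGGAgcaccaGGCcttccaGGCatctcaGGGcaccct
Col7a1: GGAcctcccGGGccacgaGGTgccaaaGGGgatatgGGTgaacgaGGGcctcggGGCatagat
The 19 collagens with enough counts to be tested all had such a run of 20 or more triplets, against 2 of 8725 other tested genes with a complete coding sequence. The run held 338 triplets in Col1a1, 45 in Col4a6 and 75 in Col7a1, so the fibrillar chain is mostly 1 long repeat and the other chains are broken into 25 and 21 runs of at least 3 triplets. Glycine codons made up a median of 25.3% of codons in the collagens and 6.21% in the other tested genes.

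The DNA before the start of 3 genes is shown because Col7a1 and Col5a3 had the largest rises after TGF-β1 among the collagens and Col4a6 the largest fall. Each line holds the 250 bases before the RefSeq start on the gene's own strand (GRCm38.p6). Capitals mark CAGAC, the letters to which SMAD proteins, the transcription factors of the TGF-β pathway, are known to bind, or GTCTG, the same letters on the opposite strand.
Col7a1, chr9:108953336-108953585, plus strand: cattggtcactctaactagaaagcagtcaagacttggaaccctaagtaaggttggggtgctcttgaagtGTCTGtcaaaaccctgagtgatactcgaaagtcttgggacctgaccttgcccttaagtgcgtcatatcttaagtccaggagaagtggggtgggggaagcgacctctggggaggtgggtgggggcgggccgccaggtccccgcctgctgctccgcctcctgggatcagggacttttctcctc
Col5a3, chr9:20815068-20815317, minus strand: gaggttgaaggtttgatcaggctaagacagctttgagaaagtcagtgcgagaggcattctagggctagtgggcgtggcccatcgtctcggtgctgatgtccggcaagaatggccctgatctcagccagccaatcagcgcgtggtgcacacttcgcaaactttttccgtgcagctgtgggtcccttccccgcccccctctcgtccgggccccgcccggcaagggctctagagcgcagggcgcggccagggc
Col4a6, chrX:141474077-141474326, minus strand: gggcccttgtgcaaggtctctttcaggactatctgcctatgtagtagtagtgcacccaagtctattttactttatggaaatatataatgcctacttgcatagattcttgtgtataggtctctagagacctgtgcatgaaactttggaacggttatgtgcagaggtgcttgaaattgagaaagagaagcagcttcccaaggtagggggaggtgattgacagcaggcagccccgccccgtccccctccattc
Those letters stood once before Col7a1 and not before Col5a3 or Col4a6. RefSeq start windows were at hand for 16 of the 19 tested collagens, 17 windows in all. CAGAC on either strand was in 9 of the 17 windows and in 42.2% of 32851 windows of all genes. GGGCGG, the GC box, was in 13 of 17 against 32.7%. CCAAT was in 7 of 17 against 33.8%, and TATAAA in 2 of 17 against 12.4%. The windows of all genes were not limited to tested genes, so the shares are not those of genes expressed here. By the counted exons, the windows of Col1a2 and Col27a1 lay wholly inside the gene. Those of Col4a5, Col6a1 and 1 of Col6a2 did so in part. None of these motifs contains another, both strands were searched, and a match describes letters and no binding.

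A further feature shared by many members lies in the 3′ untranslated region. The microRNAs of the miR-29 family are known to bind collagen transcripts, and their mature forms share 1 seed, bases 2 to 8, given in capitals.
mmu-miR-29a-3p: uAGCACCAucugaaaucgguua
mmu-miR-29b-3p: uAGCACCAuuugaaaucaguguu
mmu-miR-29c-3p: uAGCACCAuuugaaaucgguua
The complement of that seed, TGGTGCT, occurred in 15 of the 19 tested collagens, 24 times in all, and in 14.5% of 8725 other tested genes. Among the 4551 other genes whose 3′ untranslated region was at least as long as the collagens' median of 971 bases, the share was 23.2%. The first match in 4 members, with the seed complement in capitals, reads as follows.
Col1a1: gaaggaatttcTGGTGCTatagaagctga
Col3a1: aaatgtctcaaTGGTGCTataataaataa
Col4a1: ccgtcacaacaTGGTGCTactcccccccc
Col7a1: tgtgctccattTGGTGCTagagttgtgtg
Matches occurred in collagens that rose and in those that fell, with 2 in Col7a1, 3 in Col5a3, 3 in Col4a5 and 1 in Col4a6. Col1a2, Col6a1, Col11a2 and Col12a1 held none. Levels of these microRNAs were not analysed here.

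The libraries held 18362378 to 24452153 counts. Genes were tested where at least 10 CPM (counts scaled to a common library size) stood in more than 3 libraries, which left 9518 genes. Values below are normalized CPM, that is CPM of each library's tested genes after TMM scaling, and a call required a fold change above 2 together with an adjusted p below 0.01 (Benjamini-Hochberg) in edgeR's quasi-likelihood test. The DMSO libraries stood apart from each other. The standard deviation of the log2 difference between replicates over all tested genes was 0.377 in the DMSO pair, against 0.163 in vehicle and 0.147 in BI6727, and both DMSO libraries are therefore given singly throughout. Acta2, smooth muscle actin and a marker of the response to TGF-β1, had 92.1 and 100.2 CPM in vehicle, 476 and 473 in DMSO, and 348 and 326 in BI6727. Of 9 fibroblast markers 9 were tested, with summed levels of 6809 to 8273 CPM per library that Vim and Fn1 dominate. The other 7 fibroblast markers were lower in all 4 libraries with TGF-β1 than in both vehicle libraries. The share of all tested genes in that order is not given. Of these markers, 3 were called lower in DMSO (Prrx1, Pdgfra and Ddr2), where 2.53% of all tested genes were. In BI6727 5 were called lower (those and Thy1 and Pdgfrb), where 2.96% of all tested genes were. The part of these markers in the collagen results was not tested. Markers of epithelium, endothelium, leukocytes and smooth muscle each summed to at most 5.60 CPM per library, with 0 of 21 tested. Some, such as Krt5, Kdr, Cd3e and Myocd, were at 0 counts in all 6 libraries. Others were not, with Cd68 at 2.51 to 4.505 CPM, Krt14 at 0.156 to 1.83 and Cdh5 at 0 to 3.09. Krt14 and Cdh5 were higher in each library with TGF-β1 than in vehicle, and Cd68 was lower. Of 5 chondrocyte markers Sox9 alone was tested, at 126 to 188 CPM, while Acan and Matn1 were at or near 0.

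Of the 44 collagens, 19 passed the filter and 25 did not. The 19 were 8 of 11 fibrillar collagens, 4 of 6 basement membrane chains, 3 of 6 beaded filament chains, the anchoring fibril collagen, 2 of 9 FACIT collagens and 1 of 3 hexagonal network collagens. Col5a3, Col7a1 and Col11a2 were under 10 CPM in both vehicle libraries, so that they passed only through the treated libraries and had to differ to be tested. The counts of calls and the medians below are therefore descriptions. They carry no weight for the family as a whole or for the fibrillar class, which holds Col5a3 and Col11a2. Exons shared with another gene covered at most 2.50% of a tested member's exonic length.

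In the DMSO group, 4 of the 19 collagens were called higher than vehicle and 3 lower, where 2.56% of all tested genes were called higher and 2.53% lower. Those called higher were Col7a1, Col5a3, Col11a2 and Col27a1, and those called lower were Col4a6, Col4a5 and Col6a1. The classical fibrillar genes Col1a1, Col1a2 and Col3a1 did not pass. The 19 include Col5a3, Col7a1 and Col11a2, which had to differ to be tested. The median log2 fold change of the 19 was 0.29, beside a median near 0 (-0.0045) over all tested genes. It turned to -0.17 without DMSO replicate 1 and stood at 0.75 without DMSO replicate 2. In the fibrillar class the median was 0.76, with 0.33 without DMSO replicate 1 and 1.10 without replicate 2. In the basement membrane class it was -0.45, with -0.91 and -0.09 in the same order, and in the beaded filament class -1.15, with -1.60 and -0.80. The class values in DMSO thus moved with the DMSO library left out.

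**Figure D1:**
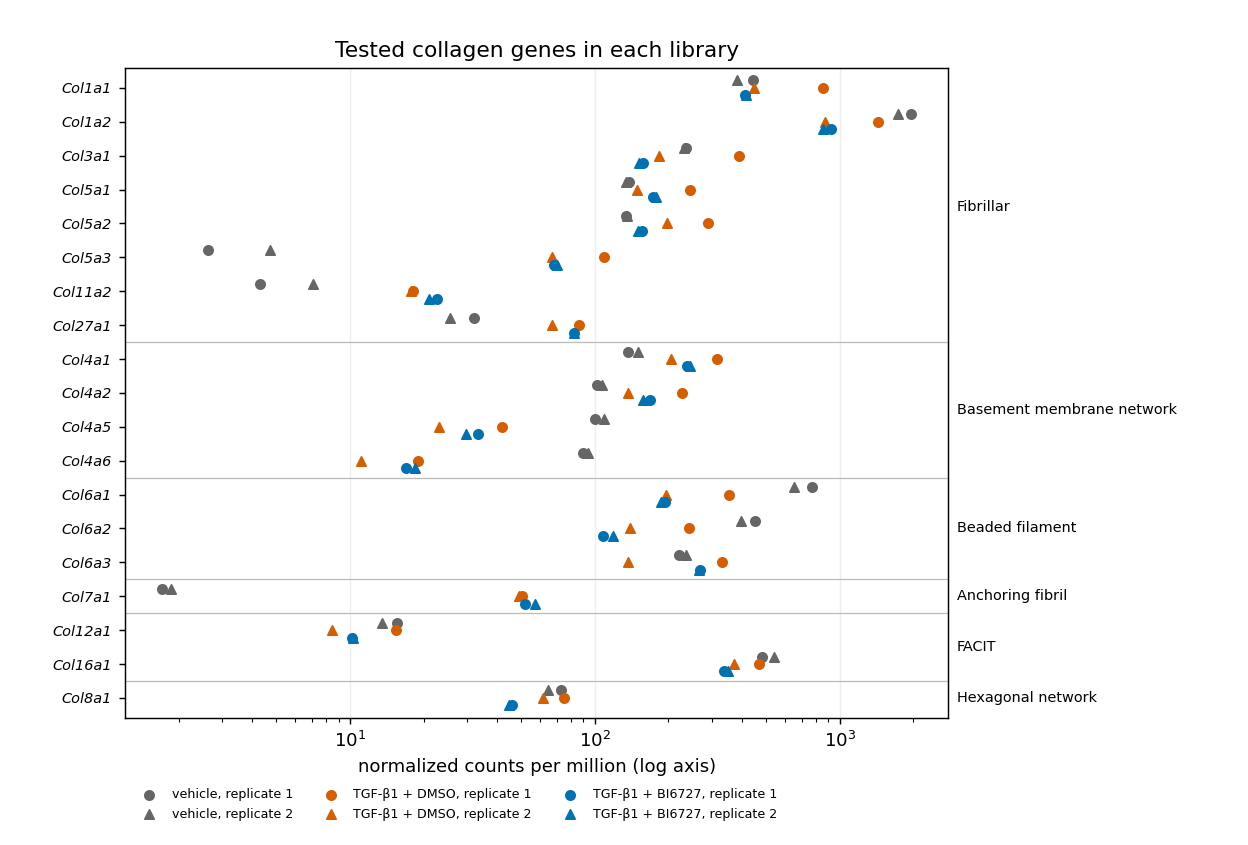
Normalized CPM (log axis) of the 19 tested collagens in each of the 6 libraries, with circles for replicate 1, triangles for replicate 2 and colours for the groups. Col7a1 and Col5a3 lay below 5 CPM in vehicle and at 48.9 CPM or more in every library with TGF-β1, and in all 19 rows the DMSO circle lies to the right of the DMSO triangle.

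Type I collagen, the main component of fibrils, is built from chains of Col1a1 (chr11:94936224-94953042) and Col1a2 (chr6:4504814-4541544). Col1a1 had 442 and 380 CPM in vehicle, 859 and 447 in DMSO, and 411 and 416 in BI6727. DMSO replicate 1 was high and the other DMSO library lay just above the range of vehicle and BI6727. The log2 fold change against vehicle was 0.67 ± 0.27 (SE, n = 2 and 2, edgeR adjusted p = 0.115), and it was 1.07 without DMSO replicate 2 (adjusted p = 1.6e-09, called) and 0.12 without DMSO replicate 1 (adjusted p = 0.251). With 1 DMSO library left, that library is taken to vary like the other groups. Col1a2 had 1958 and 1724 CPM in vehicle, 1440 and 872 in DMSO, and 918 and 859 in BI6727. All libraries with TGF-β1 lay below both vehicle libraries, with a log2 fold change of -0.67 ± 0.22 in DMSO (adjusted p = 0.0700). Col1a2 was called in DMSO only without DMSO replicate 1 (-1.08), and stood at -0.34 without DMSO replicate 2.

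Since both genes share each library, their ratio is free of the library's scaling. Per kb of exonic length, Col1a1 stood to Col1a2 as 0.427 and 0.417 in vehicle, 1.13 and 0.970 in DMSO, and 0.847 and 0.917 in BI6727. The ratio was thus higher in each library with TGF-β1 than in either vehicle library, and here the DMSO libraries lay close together. The counted exonic length of Col1a2 is 12426 bases, against 5348 in its longest coding transcript. On transcript length, the ratios were 0.204 and 0.199 in vehicle, 0.538 and 0.462 in DMSO, and 0.403 and 0.437 in BI6727. With groups of 2 the smallest exact permutation p is 0.33, so no test was made of ratios.

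Col3a1 (chr1:45311538-45349706), the chain of type III collagen in elastic tissues, had 235 and 232 CPM in vehicle, 390 and 183 in DMSO, and 158 and 152 in BI6727. The DMSO libraries lay on opposite sides of vehicle. The log2 fold change of DMSO against vehicle was 0.29 ± 0.29 (adjusted p = 0.492), and it turned to -0.36 without DMSO replicate 1. Col5a1 (chr2:27886425-28039514) and Col5a2 (chr1:45374321-45503282) are the chains of type V collagen, which starts fibrils and limits their width. Col5a1 had 139 and 135 CPM in vehicle, 244 and 149 in DMSO, and 173 and 177 in BI6727, and its log2 fold change in DMSO was 0.52 ± 0.20 (adjusted p = 0.106). Col5a2 had 134 and 135 CPM in vehicle, 291 and 197 in DMSO, and 155 and 150 in BI6727. For both genes every library with TGF-β1 was above vehicle. Col5a2 had a log2 fold change of 0.86 ± 0.17 in DMSO (adjusted p = 0.0128). It was called without DMSO replicate 2 (1.12) but not without DMSO replicate 1 (0.54).

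Col5a3 (ENSMUSG00000004098.7, chr9:20770050-20815067, minus strand), a further chain of type V, rose the most of the fibrillar collagens. It had 2.65 and 4.73 CPM in vehicle, from 51 and 104 counts. It had 108.7 and 67.2 CPM in DMSO, and 68.0 and 69.9 in BI6727. The groups with TGF-β1 did not overlap vehicle, and the log2 fold change in DMSO was 4.56 ± 0.32, a 23.6-fold rise (adjusted p = 0.00016). The call held under every setting run, with adjusted p of at most 0.00747. Per kb of exonic length Col5a1 stood 42.0 and 22.9 times above Col5a3 in vehicle, and 1.80, 1.79, 2.04 and 2.03 times above it in the DMSO and BI6727 libraries.

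Col11a2 (ENSMUSG00000024330.16, chr17:34039437-34066685) and Col27a1 (ENSMUSG00000045672.15, chr4:63214004-63334991) are fibrillar chains best known from cartilage. Col11a2 had 4.31 and 7.10 CPM in vehicle, 18.1 and 17.9 in DMSO, and 22.7 and 21.2 in BI6727, and rose by 1.65 ± 0.23 on the log2 scale in DMSO (adjusted p = 0.00274). Col27a1 had 32.0 and 25.8 CPM in vehicle, 86.6 and 66.9 in DMSO, and 82.6 and 82.0 in BI6727, and rose by 1.41 ± 0.16 (adjusted p = 0.00129). In both genes the 4 libraries with TGF-β1 lay above both vehicle libraries. The call of Col11a2 in DMSO was lost without vehicle replicate 1 (1.33, adjusted p = 0.0224), without either BI6727 library (1.65 and 1.64, both at adjusted p = 0.0103) and in a fit of the vehicle and DMSO groups alone (adjusted p = 0.0101). The call of Col27a1 was lost without vehicle replicate 1 (1.57, adjusted p = 0.0180) and without vehicle replicate 2 (1.26, adjusted p = 0.0262). These fits have fewer residual degrees of freedom than the 3 of the fit of all libraries. The fits without DMSO replicate 1 or 2 have fewer as well, and there both genes stayed called. The cause of the lost calls was not tested.

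The tested type IV chains form 2 gene pairs, 1 above and 1 below vehicle in every library with TGF-β1. Col4a1 (chr8:11198423-11312826) and Col4a2 (chr8:11312805-11449287) are the chains of the network found in nearly all basement membranes, and their genes lie head to head with starts that overlap by 22 bases. Col4a1 had 136 and 151 CPM in vehicle, 315 and 204 in DMSO, and 238 and 245 in BI6727. Col4a2 had 102 and 107 CPM in vehicle, 228 and 137 in DMSO, and 168 and 158 in BI6727. Both were above vehicle in each of the 4 libraries with TGF-β1. Neither was called in DMSO, with log2 fold changes of 0.85 ± 0.19 (adjusted p = 0.0182) and 0.80 ± 0.21 (adjusted p = 0.0351). Both were called without DMSO replicate 2 (1.14 and 1.13) but not without DMSO replicate 1 (0.50 and 0.38).

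Col4a5 (ENSMUSG00000031274.16, chrX:141475385-141689234, plus strand) and Col4a6 (ENSMUSG00000031273.16, chrX:141165403-141474076, minus strand) encode chains of the networks of kidney, skin and smooth muscle, and their starts lie head to head 1309 bases apart. Col4a5 had 100.4 and 109.5 CPM in vehicle, 41.7 and 23.1 in DMSO, and 33.3 and 29.8 in BI6727. Col4a6 had 89.5 and 93.6 CPM in vehicle, 19.0 and 11.1 in DMSO, and 16.9 and 18.5 in BI6727. Each library with TGF-β1 was below vehicle for both genes. Col4a6 had a log2 fold change of -2.60 ± 0.23 in DMSO (adjusted p = 0.000424), and Col4a5 one of -1.70 ± 0.25 (adjusted p = 0.00361). The call of Col4a6 was lost without vehicle replicate 1 or 2 (-2.64 and -2.57, adjusted p = 0.0122 and 0.0112). The call of Col4a5 was lost without vehicle replicate 1 or 2 (-1.76 and -1.63, adjusted p = 0.0433 and 0.0462), without BI6727 replicate 1 or 2 (-1.70 for both, adjusted p = 0.0119 and 0.0116) and in a fit of the vehicle and DMSO groups alone (adjusted p = 0.0116).

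The pairs were also compared as a ratio within libraries. The summed level per kb of Col4a1 and Col4a2 stood to that of Col4a5 and Col4a6 as 1.29 and 1.30 in vehicle, 8.91 and 9.93 in DMSO, and 8.11 and 8.39 in BI6727. No library with TGF-β1 came near the vehicle ratio, and the DMSO libraries differed little in it. Within the pairs the ratios moved less. Col4a1 stood to Col4a2 as 1.18 to 1.38 in all 6 libraries, and Col4a5 to Col4a6 as 1.33 and 1.39 in vehicle and 1.91 to 2.61 with TGF-β1. The remaining type IV genes, Col4a3 and Col4a4, also lie head to head, and neither had more than 8 counts in a library.

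**Figure D2:**
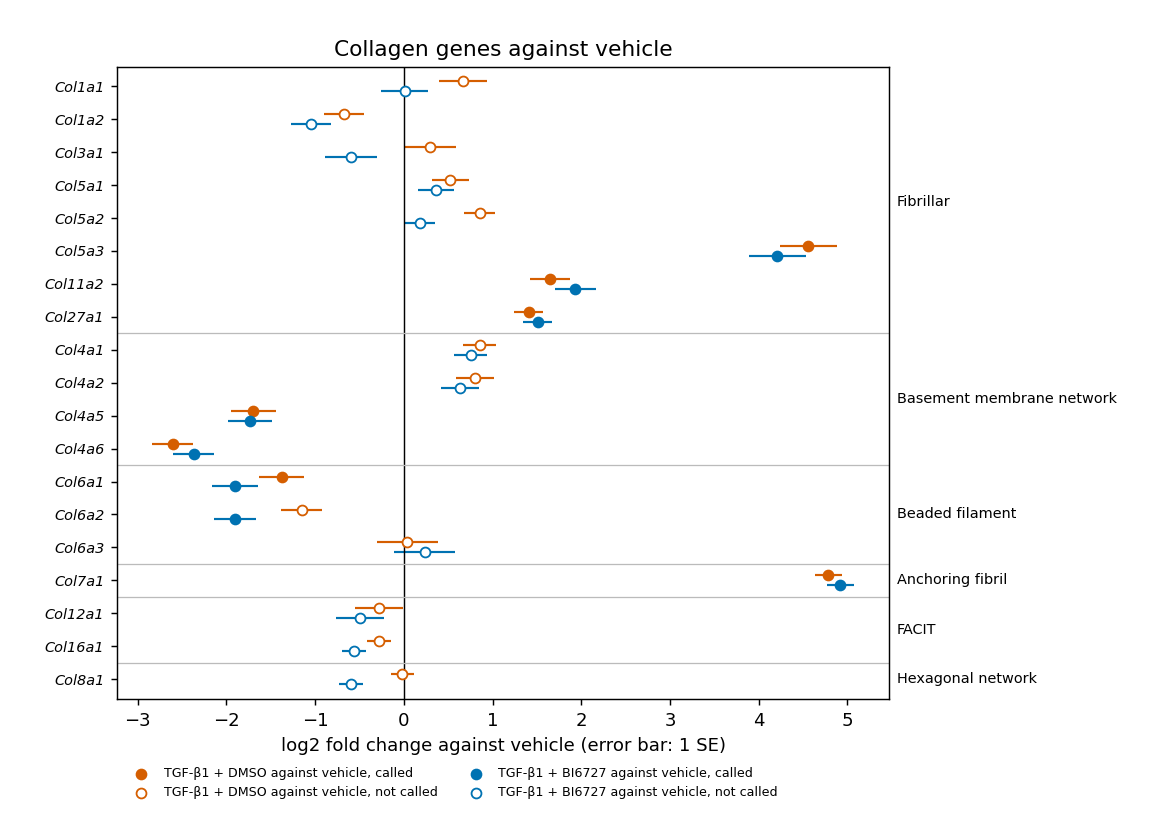
Log2 fold change against vehicle with 1 SE for the 19 tested collagens, in orange for TGF-β1 with DMSO and in blue for TGF-β1 with BI6727, with filled points where the gene was called. Col7a1 and Col5a3 lie between 4.21 and 4.92, Col4a5 and Col4a6 between -1.70 and -2.60, and Col1a1 and Col3a1 are not called in either comparison.

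Type VI collagen is assembled from Col6a1 (ENSMUSG00000001119.7, chr10:76708792-76726168), Col6a2 (chr10:76595762-76623630) and Col6a3 (chr1:90765923-90843971), and the filaments need all of them. Col6a1 had 771 and 650 CPM in vehicle, 353 and 195 in DMSO, and 193 and 186 in BI6727. Col6a2 had 451 and 396 CPM in vehicle, 242 and 140 in DMSO, and 108 and 119 in BI6727. Both genes were below vehicle in every library with TGF-β1. Col6a1 was called lower in DMSO (-1.37 ± 0.25, adjusted p = 0.00892), while Col6a2 lay just outside the threshold (-1.15 ± 0.23, adjusted p = 0.0130) and was called by DESeq2 (adjusted p = 1.1e-05). The call of Col6a1 was lost without vehicle replicate 1 or 2 (-1.25 and -1.49, adjusted p = 0.0978 and 0.0568), without BI6727 replicate 1 or 2 (-1.38 for both, adjusted p = 0.0256 and 0.0253), in a fit of the vehicle and DMSO groups alone (adjusted p = 0.0262), and without DMSO replicate 2, where the fold missed its limit (-0.997, adjusted p = 3.3e-08). Col6a2 was called without DMSO replicate 1 (-1.60) but not without DMSO replicate 2 (-0.80).

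Col6a3 did not go with its partners. It had 221 and 236 CPM in vehicle, 332 and 137 in DMSO, and 270 and 268 in BI6727, so that the DMSO libraries stood above and below all others. Its log2 fold change in DMSO was 0.04 ± 0.34 (adjusted p = 0.942), and it turned to -0.75 without DMSO replicate 1 and stood at 0.55 without DMSO replicate 2. Per kb of exonic length Col6a3 stood to Col6a1 as 0.105 and 0.133 in vehicle, 0.345 and 0.257 in DMSO, and 0.511 and 0.526 in BI6727. The chain ratio was higher with TGF-β1 in each library, and highest in the BI6727 pair. Col6a1 stood to Col6a2 as 2.65 to 3.41 in all 6 libraries. The more recently described chains Col6a4, Col6a5 and Col6a6, a cluster on chromosome 9, had at most 5 counts in a library.

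Col7a1 (ENSMUSG00000025650.13, chr9:108953586-108984875, plus strand) encodes the only chain of the anchoring fibril collagen. It had 1.71 and 1.87 CPM in vehicle, from 33 and 41 counts. It had 50.4 and 48.9 CPM in DMSO, and 51.8 and 57.1 in BI6727. The libraries with TGF-β1 were close to each other and far above vehicle, and the DMSO libraries differed by 0.04 on the log2 scale. The log2 fold change in DMSO was 4.79 ± 0.15, a 27.6-fold rise (adjusted p = 2.2e-05), and the call held under every setting run, with adjusted p of at most 0.0020. Col7a1 took 0.0316% and 0.0371% of collagen counts in vehicle and between 0.898% and 1.66% in the libraries with TGF-β1.

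No fibril-associated or hexagonal network member was called in DMSO. Col16a1 (chr4:130047840-130099283), a FACIT collagen and the most abundant of its class here, had 481 and 538 CPM in vehicle, 470 and 370 in DMSO, and 337 and 351 in BI6727. Col12a1 (chr9:79598991-79718831), a FACIT collagen of tendon, had 15.6 and 13.5 CPM in vehicle, 15.5 and 8.43 in DMSO, and 10.2 and 10.4 in BI6727. Their log2 fold changes in DMSO were both -0.28, with SE of 0.13 and 0.27 (adjusted p = 0.172 and 0.467). Col8a1 (chr16:57624258-57754737), a short-chain collagen of vessels and cornea, had 72.9 and 64.7 CPM in vehicle, 74.8 and 61.2 in DMSO, and 46.1 and 44.8 in BI6727. It did not differ detectably between DMSO and vehicle (-0.01 ± 0.13, adjusted p = 0.943), and the BI6727 pair lay below both other groups.

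Among the 25 collagens that were not tested, 6 were at 0 counts in all 6 libraries, where a count of 0 allows up to 3 counts per library, and 10 or fewer counts stood in every library for 16, those 6 included. Another 4 had between 10 and 100 counts in their highest library. The remaining 5, Col9a3, Col11a1, Col17a1, Col18a1 and Col20a1, had at least 100 counts in a library. Col17a1, a transmembrane collagen of hemidesmosomes, had 6.18 and 5.37 CPM in vehicle, 13.0 and 8.91 in DMSO, and 10.7 and 12.9 in BI6727. Col11a1, the partner of Col11a2 in cartilage fibrils, had 0.987 and 1.46 CPM in vehicle, 5.12 and 1.78 in DMSO, and 1.61 and 1.62 in BI6727, so that DMSO replicate 1 alone was high. Col20a1, a FACIT collagen, had 3.32 and 1.96 CPM in vehicle, 3.96 and 5.15 in DMSO, and 6.62 and 7.99 in BI6727. In Col17a1 and Col20a1 each library with TGF-β1 was above vehicle. Col18a1, whose protein holds the endostatin fragment, had 6.02 and 6.46 CPM in vehicle, 6.18 and 6.60 in DMSO, and 3.62 and 2.57 in BI6727, the lower values being those of the BI6727 pair. Col9a3, a FACIT collagen of cartilage, stayed between 3.97 and 7.13 CPM. In a fit of the 28 collagens and other genes kept by edgeR's filterByExpr, 9 more collagens were tested, and of them Col20a1 was called higher in BI6727 than in vehicle (1.497 ± 0.30, adjusted p = 0.0086). The share of all genes called in that fit is not given here, so the call describes Col20a1 alone.

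The classes' shares of the collagen counts differed between vehicle and the libraries with TGF-β1, while the total differed between the DMSO libraries. Collagen genes took 0.538% and 0.499% of all counts in vehicle, 0.567% and 0.314% in DMSO, and 0.342% and 0.341% in BI6727. The DMSO libraries thus lay on opposite sides of vehicle, and DMSO replicate 2 was close to the BI6727 pair. Beaded filament chains took 26.6% and 25.5% of collagen counts in vehicle, 16.5% and 14.0% in DMSO, and 16.3% and 16.6% in BI6727. Fibrillar collagens took 54.4% and 52.6% in vehicle, 61.3% and 59.4% in DMSO, and 57.0% and 56.0% in BI6727. Basement membrane chains took 7.91% and 9.17% in vehicle, and 10.7% to 13.1% with TGF-β1. In these 3 classes the libraries with TGF-β1 did not overlap vehicle, and Col1a2 alone made up 36.1% and 34.3% of collagen counts in vehicle and 24.9% to 26.3% with TGF-β1. The class values are shares of a collagen total that was lower in DMSO replicate 2 and in BI6727 than in vehicle. A higher class share in those libraries is therefore not in itself a higher share of all counts.

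**Figure D3:**
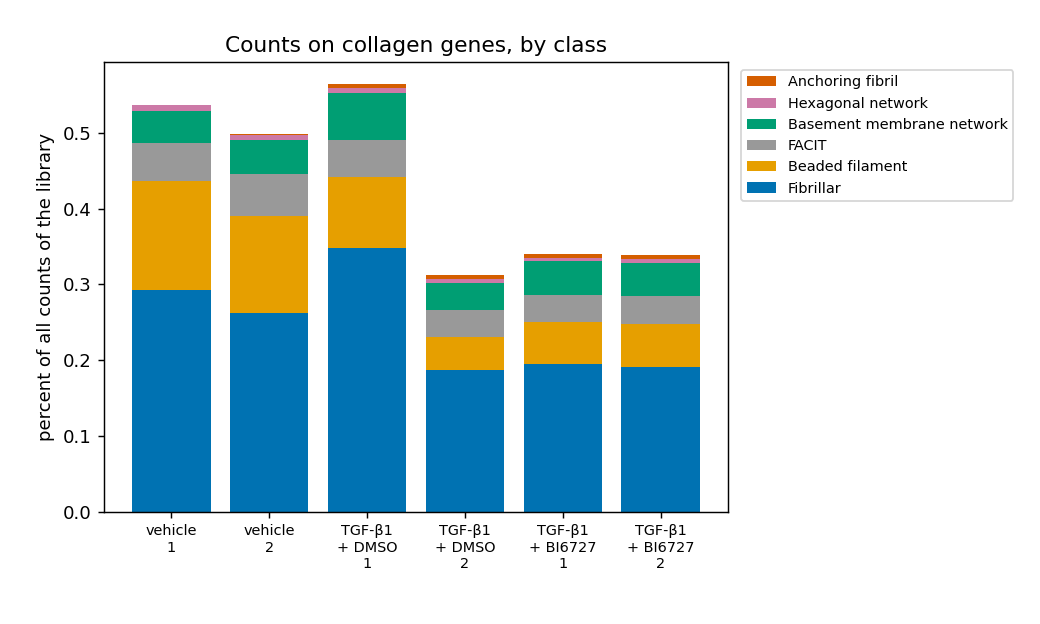
Percent of all counts of each library that fell on collagen genes, stacked by class from 0 (the multiplexin, transmembrane and remaining genes, each under 0.5% of collagen counts, are not drawn). The bar of DMSO replicate 1 reaches 0.567% and that of DMSO replicate 2 reaches 0.314%, while the beaded filament part is smaller in all 4 libraries with TGF-β1 than in vehicle.

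The DMSO libraries differed in the collagens as a family. All 19 tested collagens were higher in DMSO replicate 1 than in replicate 2, by 0.02 to 1.28 on the log2 scale, with a median of 0.72. The median over all tested genes was 0.01. A difference of over 1.5-fold was seen in 13 of 19 collagens (68.4%) and in 687 of 9518 tested genes (7.22%). The BI6727 pair differed by at most 0.16 in any collagen, and by less than the DMSO pair in 17 of 19. The DMSO pair was also the wider over all tested genes, with a standard deviation of 0.377 against 0.147. The vehicle pair differed by at most 0.84, in Col5a3 with its low counts. Col6a3 (1.28), Col3a1 (1.09) and Col1a1 (0.94) had the largest DMSO differences, and Col11a2 (0.02) and Col7a1 (0.04), both called higher, had the smallest.

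Collagen genes are long, and over all tested genes the DMSO difference was larger in longer genes. Its median was -0.37 in 1618 genes under 2 kb, 0.07 in 2204 genes of 4 to 6 kb, and 0.47 in 958 genes of 10 kb or more. Across the 9518 tested genes the Pearson correlation with log2 length was 0.652, and across the 19 collagens, which all exceed 4 kb, it was 0.077. Points are genes of the same library pair and not independent. Collagens lay above the median of tested genes of their own length range in 16 of 19 cases, the exceptions being Col7a1, Col11a2 and Col27a1. Col6a1, the shortest of them at 4380 bases, differed by 0.86. Removing each library's length trend left the same calls in the DMSO and BI6727 comparisons with vehicle but for Col5a2 (1.00, adjusted p = 4.1e-05) and Col6a2 (-1.04, adjusted p = 0.0006), which were then called in DMSO.

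**Figure D4:**
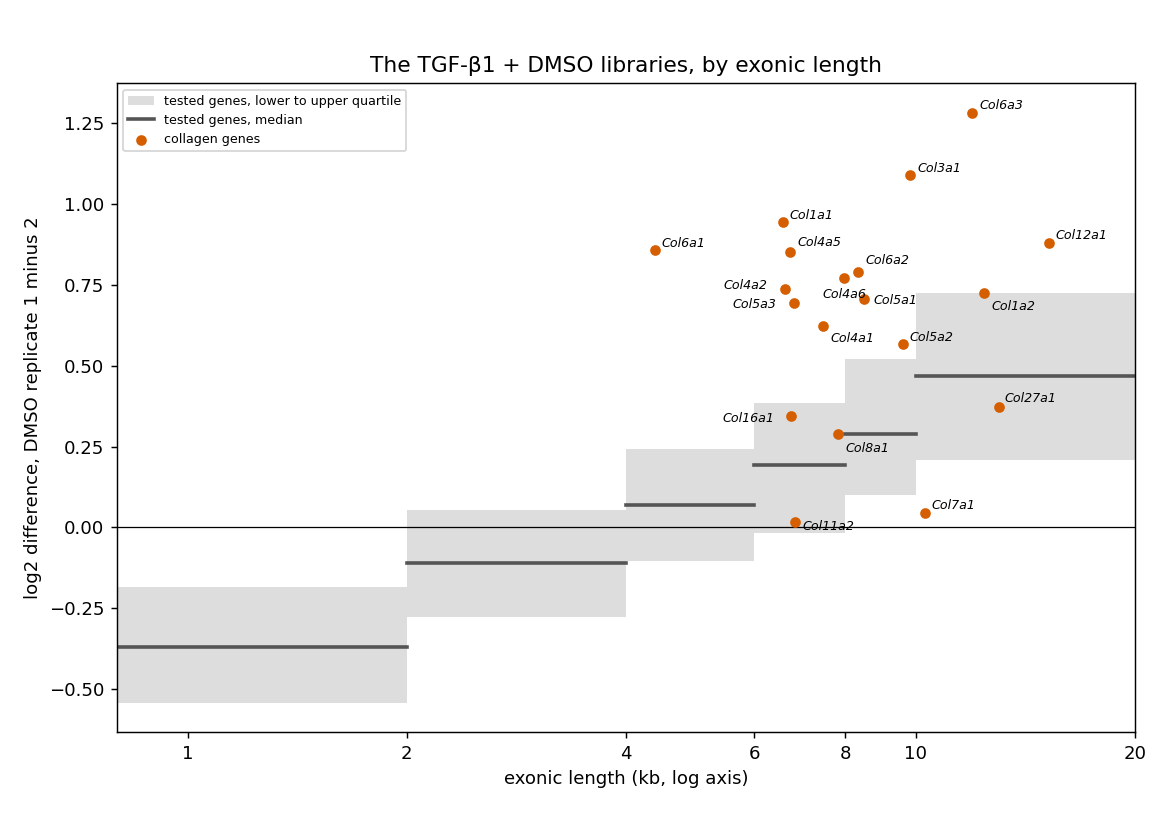
Log2 difference between DMSO replicate 1 and replicate 2 against exonic length (log axis), with the 19 collagens as points, the median of all tested genes in each length range as a line and the range from its lower to its upper quartile as a grey band. The collagens lie between 0.02 and 1.28, and 16 of 19 lie above the line of their length range.

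BI6727 against DMSO, the comparison that asks what PLK1 inhibition changes under TGF-β1, gave no call. Of the 19 collagens 14 were lower and 5 higher on average with BI6727, and 0 were called in either direction by edgeR, where the share over all tested genes was also 0.0% for higher and 0.0% for lower. DESeq2 called 0 as well. At an unadjusted p below 0.05, 5 collagens were lower and 0 higher, beside 4.52% of all tested genes lower and 2.16% higher. Those 5 were Col8a1 (-0.58 ± 0.13, adjusted p = 0.569), Col5a2 (-0.67 ± 0.17, adjusted p = 0.583), Col6a2 (-0.75 ± 0.23, adjusted p = 0.659), Col3a1 (-0.89 ± 0.30, adjusted p = 0.677) and Col1a1 (-0.66 ± 0.27, adjusted p = 0.738). Both BI6727 libraries lay below both DMSO libraries in 7 collagens, where 17.1% of tested genes did so, and above both in 2, where 17.0% did. In 9 others both BI6727 libraries lay between the DMSO libraries, a count for which the share over all tested genes is not given. The median log2 fold change was -0.22 over the 19 and -0.0028 over all tested genes, and by class it was -0.36 for fibrillar, -0.07 for basement membrane and -0.53 for beaded filament collagens. Without DMSO replicate 1 they were 0.16 for the 19 and 0.04, 0.35 and -0.04 by class. Without DMSO replicate 2 they were -0.50 for the 19 and -0.69, -0.41 and -0.91 by class.

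The answer depended on which DMSO library it was set against. The BI6727 mean was below DMSO replicate 1 in 17 of 19 collagens, with a median difference of -0.48 on the log2 scale. It was below DMSO replicate 2 in 7 of 19, with a median of 0.16. Over all tested genes the medians were 0.0025 against DMSO replicate 1 and 0.00041 against DMSO replicate 2. Without DMSO replicate 2, Col1a1 (-1.07, adjusted p = 1.4e-07), Col3a1 (-1.35, adjusted p = 8.3e-10) and Col6a2 (-1.10, adjusted p = 1.8e-07) were called lower with BI6727, where 0.179% of tested genes were. Without DMSO replicate 1, 0 collagens were called, where 0.641% of tested genes were called in either direction, and at an adjusted p below 0.05 the collagens went both ways. Higher with BI6727 were 7 of 19, such as Col4a5 (0.45, adjusted p = 0.00785) and Col6a3 (0.98, adjusted p = 1.8e-07), where 16.4% of tested genes were. Lower were 4, Col5a2 (-0.36), Col8a1 (-0.43), Col6a2 (-0.30) and Col3a1 (-0.24), where 15.3% of tested genes were. The fit without DMSO replicate 2 was more one-sided. Its log2 fold changes were negative in all tested collagens but Col11a2 (0.27) and Col7a1 (0.10). Their median was -0.50, where it was 0.16 without DMSO replicate 1. Col8a1 and Col5a2 were lower than both DMSO libraries singly, Col8a1 by 0.72 and 0.43 and Col5a2 by 0.93 and 0.36 on the log2 scale, with both BI6727 libraries below both DMSO libraries. Col1a1 was lower by 1.06 than DMSO replicate 1 and by 0.11 than replicate 2, and Col3a1 by 1.33 and 0.24. Col6a3 was lower than replicate 1 by 0.31 and higher than replicate 2 by 0.97.

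**Figure D5:**
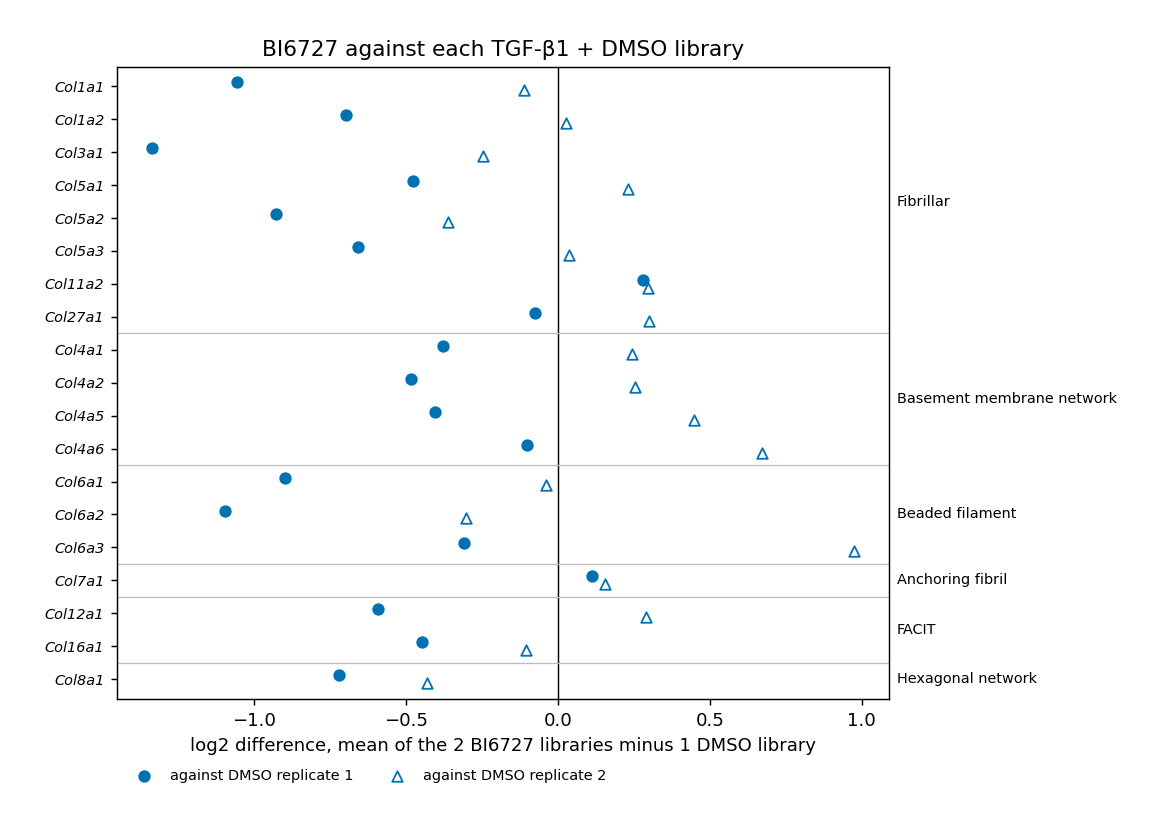
Log2 difference between the mean of the 2 BI6727 libraries and each DMSO library singly, with filled circles for replicate 1 and open triangles for replicate 2, for the 19 tested collagens. The circles lie left of 0 in 17 of 19 genes and the triangles in 7 of 19.

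Against vehicle, the BI6727 group had the collagens of the DMSO group called higher, Col7a1 (4.92 ± 0.15, adjusted p = 2.1e-05), Col5a3 (4.21 ± 0.32, adjusted p = 0.000188), Col11a2 (1.93 ± 0.23, adjusted p = 0.00123) and Col27a1 (1.51 ± 0.16, adjusted p = 0.0009), where 2.34% of tested genes were called higher. Called lower were Col4a6 (-2.37 ± 0.23, adjusted p = 0.000544), Col4a5 (-1.74 ± 0.25, adjusted p = 0.00299), Col6a1 (-1.90 ± 0.26, adjusted p = 0.00232) and Col6a2 (-1.90 ± 0.24, adjusted p = 0.00172), where 2.96% were. Both comparisons share the vehicle libraries, so the lists are not independent. Col1a2 (-1.05 ± 0.23, adjusted p = 0.0149) lay just outside, was called by DESeq2 (adjusted p = 1.4e-05), and was called without DMSO replicate 1 or 2 (-1.05 for both, adjusted p = 6.8e-11 and 7.0e-11). Without vehicle replicate 1 the calls of Col11a2 (1.62), Col27a1 (1.67), Col4a5 (-1.80), Col4a6 (-2.40), Col6a1 (-1.78) and Col6a2 (-1.81) were lost, at adjusted p from 0.0121 to 0.0381. Without vehicle replicate 2, Col27a1 (1.36), Col4a5 (-1.67), Col4a6 (-2.34), Col6a1 (-2.02) and Col6a2 (-1.99) lost theirs, at adjusted p from 0.0126 to 0.0419. Without BI6727 replicate 1, Col11a2 (1.88), Col27a1 (1.505), Col4a5 (-1.82), Col4a6 (-2.31), Col6a1 (-1.93) and Col6a2 (-1.83) lost theirs, at adjusted p from 0.0114 to 0.0318. Without BI6727 replicate 2 these 6 lost theirs as well (1.99, 1.51, -1.66, -2.44, -1.88 and -1.98), at adjusted p from 0.0102 to 0.0412. Col7a1 and Col5a3 stayed called in each of these fits. In a fit of the vehicle and BI6727 groups alone, which leaves out the DMSO libraries, every call of the main fit held. The adjusted p there was at most 3.1e-08 (Col11a2), and Col1a2 was called as well (-1.05, adjusted p = 6.8e-11).

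Collagen chains are modified, folded, exported and cross-linked by a set of enzymes and chaperones, of which 26 of 35 listed genes were tested. In DMSO against vehicle 3 were called higher and 2 lower (background 2.56% and 2.53%), in BI6727 against vehicle 3 higher and 4 lower (2.34% and 2.96%), and in BI6727 against DMSO 0 in either direction (6 lower and 0 higher at an unadjusted p below 0.05, where 4.52% and 2.16% of all tested genes were). The list's median log2 fold change in DMSO was -0.09, and 0.02 without DMSO replicate 2. Creb3l1, a transcription factor that activates collagen genes from the endoplasmic reticulum, had 7.84 and 6.55 CPM in vehicle, 41.7 and 29.1 in DMSO, and 22.1 and 26.4 in BI6727 (2.30 ± 0.22 in DMSO, adjusted p = 0.000579). It was under 10 CPM in both vehicle libraries and passed the filter only through the treated ones, so it had to differ to be tested. Plod2, the lysyl hydroxylase of the telopeptides, rose from 21.6 and 23.6 CPM to 58.6 and 54.5 in DMSO, and Bmp1, the protease that trims the carboxyl end of procollagen, from 93.9 and 84.3 to 237 and 188. Both stayed up in BI6727, Plod2 at 66.1 and 61.7 CPM and Bmp1 at 215 and 214. Pcolce, the enhancer of that protease, fell from 573 and 485 CPM in vehicle to 247 and 226 in DMSO and stood at 161 and 167 in BI6727 (-1.16 ± 0.11 in DMSO, adjusted p = 0.000635). Loxl1, a cross-linking oxidase, had 233 and 196 CPM in vehicle, 104.8 and 85.6 in DMSO, and 66.7 and 70.4 in BI6727 (-1.17 ± 0.13 in DMSO, adjusted p = 0.00125). P4ha3, a prolyl hydroxylase subunit, and Lox, the main lysyl oxidase, were called lower only in BI6727 against vehicle (-1.63 ± 0.21, adjusted p = 0.00201, and -1.02 ± 0.18, adjusted p = 0.0072), and the difference between the treated groups was not called for either (adjusted p = 0.594 and 0.764).

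Of 12 listed collagen receptors 6 were tested, and 1 was called higher and 1 lower in each comparison with vehicle (background 2.56% and 2.53% in DMSO, 2.34% and 2.96% in BI6727), with 0 called between BI6727 and DMSO. Itga2, the integrin subunit that binds fibrillar collagen, had 0.831 and 1.32 CPM in vehicle, 33.9 and 22.2 in DMSO, and 25.0 and 33.1 in BI6727 (4.68 ± 0.33 in DMSO, adjusted p = 0.000166). It too passed the filter only through the treated libraries and had to differ to be tested. Ddr2, a receptor tyrosine kinase for fibrillar collagen, had 165 and 170 CPM in vehicle, 85.7 and 60.0 in DMSO, and 72.3 and 77.5 in BI6727 (-1.20 ± 0.16 in DMSO, adjusted p = 0.00255). The median log2 fold change of the 6 in DMSO, Itga2 included, was 0.65.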

How the data were processed

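NIH/3T3 RNA was measured in 6 libraries. The authors mapped single-end reads to mm10 with Subjunc and deposited raw counts per Gencode M20 gene from featureCounts (Subread 1.6.4 and DESeq2 1.22.2 are named in the submitters' processing notes). The strand setting is not given in the sources used here. Groups and replicate numbers came from the sample labels. The filter kept genes that reached 10 CPM in over 3 libraries. They were fitted by the quasi-likelihood method of edgeR 4.0.16 under R 4.3.3, with TMM scaling, all 6 libraries together and 3 residual degrees of freedom. P-values were adjusted over all 9518 of them by Benjamini-Hochberg. The standard error is the log2 fold change divided by the root of F. The script was tested on simulated data. Library totals were 18362378 to 24452153 counts. Counting error was not compared with the spread between replicates, and it is larger in genes with few counts, such as Col7a1 in vehicle (33 and 41 counts). Alternatives were DESeq2 1.42.0 and its size factors, other filters, fits of 2 groups, replicate blocks, length offsets (lowess span 0.3) and single libraries left out. Members are all collagen genes by symbol. Tested members are named with every library's value, untested ones where a library held 100 counts, and pathway genes where called. Members, classes and lists were chosen with earlier results of these data known. Coordinates are mm10. Sequences are from RefSeq tables (GRCm38.p6) and Gencode M21 transcripts, 1 per gene with the longest complete coding sequence.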

Additional observations from a re-analysis of the deposited data

How the results depend on the processing

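The 19 tested collagens in 3 comparisons were refitted under 15 other settings, and 765 of 855 fold changes kept their direction and their side of the threshold. Of the others, 26 changed sign, 42 lost a call and 22 gained one. Col7a1 and Col5a3 kept their calls against vehicle in all of them. In the count of collagens called, leaving out 1 library gave 2 to 8 called higher (main count 4) and 0 to 5 called lower (main count 3) in DMSO against vehicle, 2 to 4 higher (4) and 0 to 5 lower (4) in BI6727 against vehicle, and 0 to 3 lower (0) in BI6727 against DMSO. The lone library of such an arm is assumed to vary like the other groups. The share of all tested genes called under each setting is not given beside these counts. They therefore describe the settings and carry no result about the collagens. In a fit of the vehicle and DMSO groups alone, 1 collagen was called lower. In the fit of the vehicle and BI6727 groups alone, which has as many samples, 5 were called lower. The share of all tested genes called is not given for either fit, and the cause of the difference was not tested. Leaving out 1 library, the log2 fold change in DMSO against vehicle ranged from -0.79 to 0.11 in Col12a1, -0.36 to 0.75 in Col3a1, -0.75 to 0.55 in Col6a3 and -0.17 to 0.13 in Col8a1. In BI6727 against DMSO it ranged from -0.60 to 0.29 in Col12a1, from -0.71 to 0.029 in Col1a2, from -0.086 to 0.30 in Col27a1, from -0.39 to 0.25 in Col4a1, from -0.50 to 0.26 in Col4a2, from -0.42 to 0.45 in Col4a5, from -0.11 to 0.68 in Col4a6, from -0.49 to 0.23 in Col5a1, from -0.67 to 0.041 in Col5a3 and from -0.32 to 0.98 in Col6a3. In BI6727 against vehicle it ranged from -0.10 to 0.12 in Col1a1, which was at -0.0015 with the crossed block. With length offsets, Col27a1 in BI6727 against DMSO was at -0.029 (-0.031 with the replicate block as well), and Col8a1 in DMSO against vehicle at 0.10 (0.11 with the block); the cause was not tested. In BI6727 against vehicle the fibrillar median of 0.27 over 8 members was 0.35 with length offsets and 0.39 with filterByExpr, which tests 10 members (0.29 over the same 8). The FACIT median of -0.53 over 2 members was -0.46 with length offsets and -0.48 with filterByExpr, which tests 5 (-0.51 over the same 2). As a share of the counts of tested genes, collagens took 0.344% and 0.343% in BI6727. As a share of length-scaled counts (TPM), they took 0.134% and 0.123% in vehicle, 0.140% and 0.0644% in DMSO, and 0.0757% and 0.0789% in BI6727, with the same order of libraries at the top and bottom.

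The labels number the replicates. The deviations of same-numbered libraries had correlations of -0.258 (DMSO with BI6727), -0.11 (vehicle with DMSO) and 0.0466 (vehicle with BI6727) across genes. Each value compares the replicate difference of a group with that of another group. Whether the numbers pair the samples was not tested. With the replicate block, 4 collagens were called higher and 3 lower in DMSO against vehicle, 4 and 4 in BI6727 against vehicle, and 0 in BI6727 against DMSO, and Col6a3 in DMSO was at -0.049. With the DMSO numbers exchanged (a crossed replicate block, chosen after seeing the data), 4 were called higher and 4 lower in DMSO against vehicle, and Col6a3 was at -0.047. The share of all tested genes called with either block is not given. The counts therefore describe these settings and carry no result about the collagens. Members under 10 CPM were too shallow for the main test.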
